A study of Mus musculus with 10 samples.

Results

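The ribosomal protein genes were examined in ChIP-seq libraries of mouse ES cells, as a set made mostly of promoters known to be active in every growing cell. Some of the paralogs in the set are known from single tissues. Transcription itself was not measured in these libraries. All symbols that begin with Rpl or Rps followed by a digit were taken, without the Rps6k kinase genes and without pseudogenes marked -ps. This rule uses names and no measured value, and it gave 85 of the 24500 genes in the count tables. By symbol, the 51 Rpl genes are called large subunit and the 34 Rps genes small subunit members here. Among the 85 are 73 canonical genes, 11 paralogs (Rpl3l, Rpl7l1, Rpl10l, Rpl22l1, Rpl32l, Rpl36al, Rpl37rt, Rpl39l, Rps4l, Rps27l and Rps27rt) and Rps19bp1. Rps19bp1 codes for a protein that binds RPS19 and is no ribosomal protein itself, but is counted with the small subunit members by its symbol.

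Control cells were E14 ES cells labelled wild-type. The mutant libraries are titled Ezh2KO, a name the paper also uses for separate knockout cells, and are labelled with exon 14 as knocked out. By that exon label they are taken as the ex14D-Ezh2 cells of the paper and called ex14D here. Both genotypes carry the strain label 12910la. The ex14D cells carry a CRISPR-Cas9 in/del in exon 14, per the study's results, so that the isoform without this exon is the functional one. No treatment separates the genotypes. The data hold 1 input library per genotype and 2 libraries per genotype for H3K27me3 and for EZH2, 10 in all. The sources used here do not say whether the libraries of a group came from separate cultures or clones, so p-values measure only the spread between these samples.

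H3K27me3 is the trimethyl mark on lysine 27 of histone H3, and EZH2 is the catalytic subunit of PRC2, the complex that writes it. In ES cells PRC2 is known to sit on CpG-rich promoters of silent developmental genes, while CpG-rich promoters of highly transcribed genes usually lack the mark. Ribosomal protein genes are such highly transcribed genes. Their transcripts typically begin with a C inside a run of pyrimidines, the TOP motif, through which mTOR signalling controls their translation, and their promoters commonly hold sites for ETS-family factors and YY1.

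Promoter sequences of 300 bases, from 250 before to 50 after the annotated start, were found for 65 of the 85 genes in RefSeq (GRCm38.p6). Genes were placed by symbol and their promoters matched by gene ID, taking the promoter nearest to the placed start. The 6 stretches printed here reach from 15 bases before the start to the 15th transcribed base and lie at the middle of the counted windows. They show the 3 members with the longest pyrimidine run over the start, and Rps6 as the classic TOP gene whose protein is phosphorylated by the S6 kinases. Rpl10l and Rpl3l are added as paralogs, both among the 3 highest in control H3K27me3 of the members tested between genotypes. Capitals mark the pyrimidine run that holds the first transcribed base, as far as it lies in the stretch. Coordinates are chr2:26910792-26910821 (plus strand) for Rpl7a, chr7:109519180-109519209 (plus) for Rpl27a, chr2:39005117-39005146 (minus) for Rpl35, chr4:86857353-86857382 (minus) for Rps6, chr12:66284387-66284416 (minus) for Rpl10l and chr17:24727811-24727840 (plus) for Rpl3l.
Rpl7a: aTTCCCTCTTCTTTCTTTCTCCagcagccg
Rpl27a: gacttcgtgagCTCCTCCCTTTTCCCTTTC
Rpl35: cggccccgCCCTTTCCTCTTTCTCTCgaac
Rps6: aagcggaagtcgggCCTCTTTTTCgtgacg
Rpl10l: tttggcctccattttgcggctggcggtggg
Rpl3l: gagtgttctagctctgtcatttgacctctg
The run over the start measured 21 bases in Rpl7a, 20 in Rpl27a, 18 in Rpl35 and 10 in Rps6. Neither Rpl10l nor Rpl3l has a pyrimidine as its annotated first base.

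A run of at least 5 pyrimidines over the annotated start was present in 19 of the 65 members (29.2%), against 8.63% of all 18176 promoters and 10.7% of 169 promoters of other translation and proteasome genes. The first base was C in 35.4% of members and in 13.7% of all promoters. The ETS core CCGGAAG, searched on both strands, was found in 23 members (35.4%) against 11.8% of all promoters. The YY1 core AAGATGG, also on both strands, was found in 10 members (15.4%) against 6.5%. Both cores share the letters AAG, so that a joined site would count for each, and a match describes the sequence only. The other translation and proteasome genes held them in 32.5% and 16.6%, near the shares in members. A TATAAA box on either strand was held by 7 members (10.8%), close to the 13% of all promoters.

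CpG content set most members among the CpG-rich promoters. The ratio of observed to expected CpG had a median of 0.85 in members and 0.58 in all promoters, and it was at least 0.6 in 54 of 65 members (83.1%) against 48.3% of all promoters. The small subunit members were CpG-rich in 23 of 25 cases and the large subunit members in 31 of 40. Rps6 held 23 CpG sites in its 300 bases and Rpl28 held 29. Rpl10l, a copy of Rpl10 known from the testis, held 13, and Rpl3l, the copy of Rpl3 known from muscle, held only 2.

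Ribosomal protein promoters are crowded, and this limits what could be counted there. The authors counted reads in 1 kb windows centred on the 5′ most start, and reads in 2 windows at once are assigned to no gene. In the annotation used here, 26 members (30.6%) share part of their window with another gene, against 14.4% of all 24349 placed genes. For 13 of them a partner codes for protein, such as Ndufa7 beside Rps28, Lias beside Rpl9 and Mgat2 beside Rpl36al. For the other 13 the partners are noncoding, most of them small nucleolar RNA genes. Rps2 has no base of window of its own, and it is listed at 0 in both inputs and in all 4 H3K27me3 libraries.

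The input counts followed the free part of the window, as the plot of input reads against window shows. Members with a whole window had a median of 37 input reads over both libraries and reached 63 in Rpl28. Members with under 500 bp of their own had a median of 4 and at most 14. Among 59 members with a whole window, 4 had 5 or fewer input reads, Rps27rt with 5, Rpl34 with 1 and Rpl26 and Rpl30 with 0, and the others had at least 20. The cause of these 4 low counts was not tested.

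**Figure D1:**
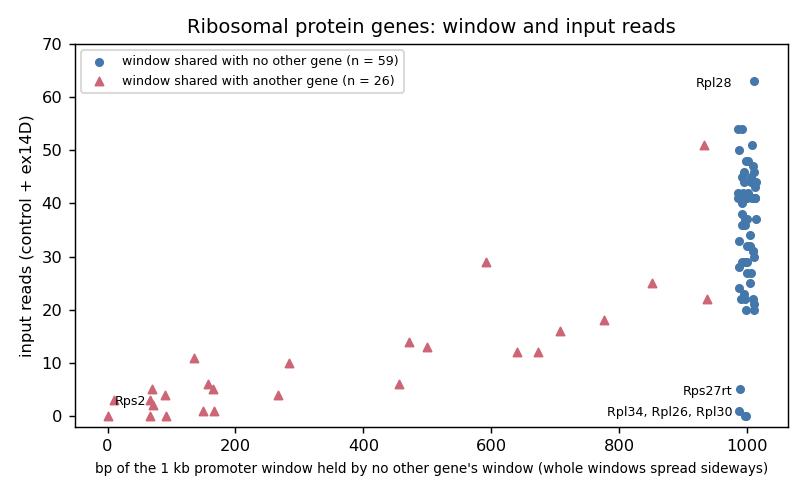
Input reads of 85 ribosomal protein genes, summed over the control and ex14D input (vertical axis, reads), against the part of the 1 kb promoter window that no other window holds (horizontal axis, bp). Triangles are the 26 genes that share their window and circles the 59 that do not; the genes with little window of their own lie at the bottom, and 4 genes with whole windows lie there too.

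The libraries differed in depth and in the share of reads that fell on promoters. Reads on genes numbered 409371 and 416778 in the inputs, 594289 to 1450937 for H3K27me3 and 13628137 to 18403892 for EZH2. In the inputs 1.9% of all counted reads fell on genes, in the control H3K27me3 libraries 5.65% and 5.98%, and in the ex14D H3K27me3 libraries 7.58% and 6.86%. Results at ribosomal protein genes are therefore given on 2 scales, as CPM, which relates each count to the reads on genes of its library, and as RPM, which relates it to all counted reads. As a check of the antibody label, 39 of 39 Hox promoters lay at least 2-fold over input in both control H3K27me3 libraries, against 11.3% of all genes. Of 7 promoters of ES cell factors, 6 lay below input CPM in all 4 libraries, with Klf4 as the exception, and 4 did in RPM. In CPM 71% of all genes lay below input too, so this count cannot check the cell label.

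H3K27me3 was sparse at ribosomal protein promoters in both genotypes. Over the 85 genes together the control libraries held 257 and 288 H3K27me3 reads and the ex14D libraries 597 and 590, where the inputs held 1187 and 1124. In CPM these sums were 432.4 and 307.3 in control and 411.5 and 472.7 in ex14D, against 2900 and 2697 in the inputs. Relative to the input of the same genotype the summed CPM was thus 0.149 and 0.106 in control and 0.153 and 0.175 in ex14D. In RPM the sums were 24.4 (95% exact Poisson interval 21.5 to 27.6) and 18.4 (16.3 to 20.6) in control and 31.2 (28.7 to 33.8) and 32.4 (29.9 to 35.2) in ex14D, against 55 and 51.7 in the inputs. On this scale the ratios to input were higher, 0.444 and 0.334 in control and 0.602 and 0.627 in ex14D. All 4 libraries lay below input on both scales. Intervals cover counting error only.

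**Figure D2:**
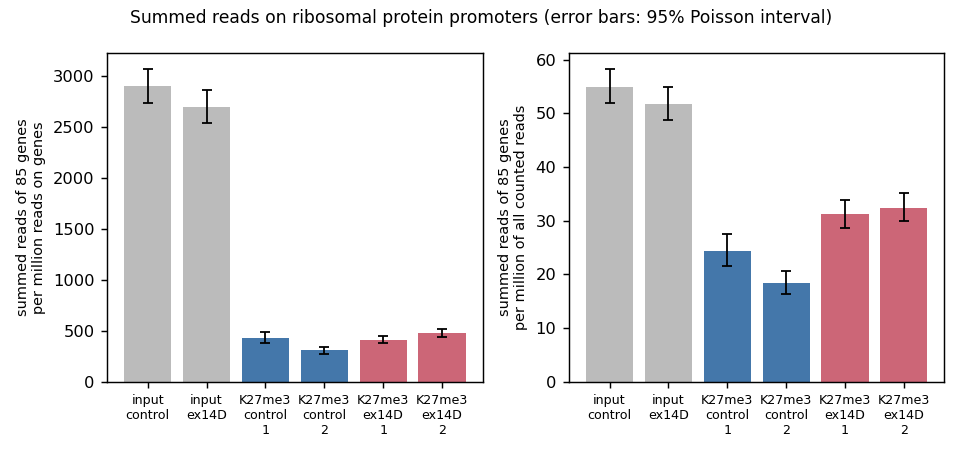
Summed reads on the promoters of 85 ribosomal protein genes in the 2 input and 4 H3K27me3 libraries, in CPM (left, relative to reads on genes) and in RPM (right, relative to all counted reads), with 95% exact Poisson intervals as error bars. The H3K27me3 bars lie below the input bars on both scales, and the control and ex14D bars overlap on the left but not on the right.

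The other translation and proteasome genes gave similar median levels per gene, and the Hox genes gave the opposite. The level used here is log2((CPM + 1)/(input CPM + 1)) per gene and library. It is relative to the reads on genes of its library and does not measure the total amount of the mark. The median level over the 85 members was -2.46 and -2.87 in control and -2.40 and -2.28 in ex14D. The 209 other translation and proteasome genes (translation factors, mitochondrial ribosome, proteasome and tRNA synthetase genes, and 6 genes of the cytosolic ribosome whose names do not match the rule) had medians of -2.56, -2.76, -2.54 and -2.21 in the same order, and all 24500 genes had -1.45, -1.51, -1.92 and -1.84. The 209 Vmn1r receptor genes, which are silent in ES cells and poor in CpG, had -1.78, -1.82, -2.36 and -1.98. The 39 Hox genes had 3.40, 3.19, 4.37 and 4.71. Summed over the 209 other translation and proteasome genes, CPM relative to input was 0.26 and 0.254 in control and 0.254 and 0.286 in ex14D. These ratios lay above those of the members. Of the 209 genes, 8 lay at least 2-fold over input in both control libraries. In each library the ribosomal protein median lay below that of all genes, and the gap was larger in the control libraries. Whether the gap differs between genotypes was not tested.

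**Figure D3:**
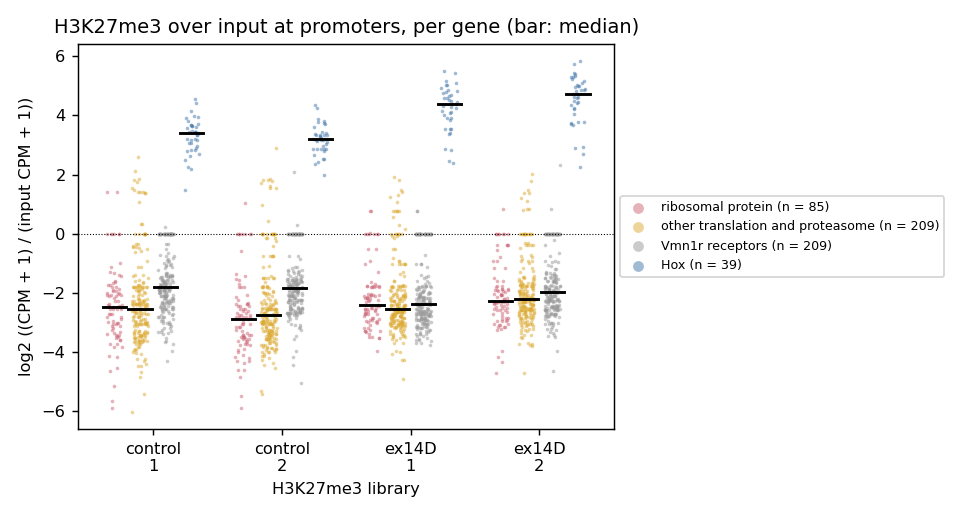
H3K27me3 level over input of each gene, log2((CPM + 1)/(input CPM + 1)), in the 4 H3K27me3 libraries, for 85 ribosomal protein genes, 209 other translation and proteasome genes, 209 Vmn1r receptor genes and 39 Hox genes, with the median as a bar. The ribosomal protein medians lie between -2.87 and -2.28, near those of the other translation and proteasome genes. The Hox medians lie between 3.19 and 4.71.

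Across single genes, 51 members had at least 10 reads in both inputs, and 50 of them lay below input CPM in all 4 H3K27me3 libraries (98%), where 76.4% of the 18924 genes with such inputs did. So did 140 of 148 other translation and proteasome genes (94.6%) and 129 of 129 silent Vmn1r genes, shares close to that of the members. In RPM, 43 of the 51 (84.3%) lay below input in all 4 libraries, against 34.9% of genes, 75.7% of the other translation and proteasome genes and 59.7% of the Vmn1r genes. By the CPM level, no member reached 2-fold over input in both control libraries or in both ex14D libraries, while 12.1% of the genes with such inputs did in control. By the same CPM level this covers the 31 CpG-rich members with at least 10 input reads, where 17.5% of all CpG-rich promoters with such inputs lay at least 2-fold over input in both control libraries. In RPM the statement does not hold, since Rpl10l had 2.4 and 1.65 in ex14D against 0.598 in its input.

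In edgeR's quasi-likelihood test of H3K27me3 against input over both genotypes, 61 members passed the filter on low counts. Of these, 60 lay below input and 0 above, with Benjamini-Hochberg adjustment over 20681 promoters, of which 74.0% were called lower and 13.9% higher. The 61 passed mostly through the input, where they are high: 2 of them reached the level the filter asks in at least 2 H3K27me3 libraries. Their count is therefore a description, as are the values of single members that passed in this way. Without the filter 71 of 81 members with any read were called lower and 0 higher, beside 69.4% of promoters called lower and 12.1% called higher. The median of the 81 was -2.78 on the log2 scale (49 large subunit genes -2.72, 32 small subunit genes -3.17), beside -1.93 for all promoters.

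The count depended on how the libraries were scaled. With TMM scaling 34 of the 61 members were called lower and 1 higher, beside 19.7% and 26.2% of promoters. With all counted reads as library size 29 of 49 members were called lower and 1 higher, beside 18.6% and 27.8%.

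The largest distances below input among the tested members were those of Rps16 and Rps13, both of the small subunit. Rps16 had 2 and 0 H3K27me3 reads in control and 4 and 3 in ex14D, with 18 and 7 reads in the inputs of control and ex14D. Its log2 fold change against input was -3.63 ± 0.59 (SE). Rps13 had 1 and 3 reads in control, 7 and 11 in ex14D and 27 and 24 in the inputs, and its log2 fold change was -3.60 ± 0.42. Rps6 had 4 and 0 reads in control, 8 and 11 in ex14D and 24 in each input, and its log2 fold change was -3.47 ± 0.43. These 3 genes entered the fit through their inputs, so their values are given as a description, with no p. In CPM, each of the 4 H3K27me3 libraries lay below its input at all 3 genes.

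Further genes with large distances below input were Rpl7l1 (-3.48), Rpl13a (-3.47), Rps24 (-3.42), Rps14 (-3.36), Rpl28 (-3.35) and Rpl21 (-3.33), a mix of both subunits with 1 paralog. Rpl28 had the most input reads of all members, 31 and 32, beside 4 and 2 H3K27me3 reads in control and 11 and 17 in ex14D. Rps19 and Rpl11, which with Rpl5 are known from Diamond-Blackfan anaemia, had log2 fold changes of -3.22 and -2.76, and Rpl5 had -2.89. Rpl11 and Rpl5 are also known to bind MDM2. Rpl3, with 5 and 8 input reads and 500 bp of window of its own, was not tested. The SE of single genes, 0.4 to 0.59 for those given with one, is larger than the gaps between neighbouring values, so the order among them is not resolved.

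The 4 members on the X chromosome lay among the others. Rpl10, Rpl36a, Rpl39 and Rps4x had log2 fold changes against input of -2.71, -2.72, -3.29 and -2.45.

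Rpl10l was the one member tested that was not called below input. This gene on chromosome 12 (66283379 to 66284401, minus strand) had 9 and 24 H3K27me3 reads in control and 46 and 30 in ex14D, where its inputs had 16 and 13. In CPM these were 15.1 and 25.6 in control and 31.7 and 24 in ex14D, against 39.1 and 31.2 in the inputs. On this scale the genotypes overlap, and 1 of the 4 libraries reached its input. The log2 fold change against input was -0.51 ± 0.41 with an adjusted p of 0.233. It turned with the scaling, to 1.20 with TMM (adjusted p = 0.00687) and to 1.25 with all counted reads (adjusted p = 0.00554), and Rpl10l is the 1 member called above input there. In RPM it had 0.855 and 1.53 in control and 2.4 and 1.65 in ex14D, above the inputs at 0.742 and 0.598 in all 4 libraries.

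The next smallest distances below input were those of 3 other paralogs, Rpl37rt, Rpl3l and Rpl22l1, while Rpl7l1 and Rps4l lay among the lowest members. Rpl3l had 18 and 17 H3K27me3 reads in control and 15 and 18 in ex14D beside 25 and 29 in the inputs, and a log2 fold change against input of -1.95 ± 0.39 (adjusted p = 5.09e-06). Rpl37rt had 8 and 11 in control and 15 and 10 in ex14D beside 15 and 15, and a log2 fold change of -1.75 ± 0.41, given as a description since it reached the filter's level in fewer than 2 H3K27me3 libraries. Neither gene was called below input with TMM or with all counted reads. Rpl22l1 had -2.18, Rpl39l -2.50, Rpl32l -2.57, Rps27l -2.85, Rps4l -3.21 and Rpl7l1 -3.48. Rps19bp1 had -3.33. Rpl36al and Rps27rt had too few input reads to be tested.

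Peaks were all but missing from ribosomal protein promoters. The authors called MACS2 broad peaks in each H3K27me3 library. In the 4 libraries 0, 0, 1 and 0 of 85 member windows of 1 kb held a peak, in the order control 1, control 2, ex14D 1 and ex14D 2. Over all 24349 placed genes the shares were 18.8%, 23.7%, 20.6% and 16.8%. The 209 other translation and proteasome genes had 4.78%, 6.22%, 6.7% and 4.78%, and the 207 placed Vmn1r genes had 0 in each library. A lack of peaks was thus not particular to the members. The 1 member with a peak was Rpl10l in ex14D replicate 1, with a fold enrichment of 4.72 and a −log10 q of 10.2 as the peak caller gave them. In ex14D replicate 2 the nearest peak lay 1009 bp from its start, while in the control libraries the nearest lay 14720 bp away or farther.

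Within 5 kb windows the members with a peak were 4, 3, 2 and 2 of 85, beside 24%, 31%, 25.8% and 21.2% of all placed genes. Rps27rt had one in every library, between 1497 and 1627 bp from its start. Rpl26 and Rpl7 had one in both control libraries and in neither ex14D library, and Rps19 had one in control replicate 1. For Rpl7 the nearest peak lay 1225 and 1264 bp away in control and 10855 and 11304 bp in ex14D. The median distance from a member to the nearest peak was 26536 and 17293 bp in control and 24873 and 37194 bp in ex14D, below the medians of 46083, 24404, 40432 and 62676 bp over all genes.

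The comparison of ex14D with control asked whether H3K27me3 at these promoters differed between the genotypes. Only 6 members passed the filter on low counts, and 0 of them were called, where 9.07% of the 14883 promoters tested were (3.25% lower and 5.83% higher). At an unadjusted p under 0.05, 0 were lower and 1 higher, given as a description without the share over all promoters. DESeq2 called 0, giving no adjusted p for 80 of 81 members, where it called 266 of all promoters lower and 657 higher. All 6 members that passed the filter are large subunit genes and 5 are paralogs, with Rpl35 as the only canonical gene. Rpl10l, whose reads are given above, had a log2 fold change of 0.85 ± 0.37 (adjusted p = 0.174 in edgeR's quasi-likelihood test). Rpl3l had -0.47 ± 0.40 (adjusted p = 0.574). Rpl22l1, Rpl35, Rpl37rt and Rpl39l lay between 0.02 and 0.39, and each of these 4 turned its sign under at least 1 other scaling. The median H3K27me3 count of a member in 1 library was 4 reads, so differences at most single genes were not detectable at this depth.

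Without the filter 81 members entered the test, 66 of them above 0 and 15 below, where 52.1% of all 23599 promoters lay above 0. Their median log2 fold change was 0.70, near the 0.71 of 202 other translation and proteasome genes and above the 0.04 of all promoters. In that test 0 members were called lower and 2 higher, beside 2.65% and 3.69% of promoters (6.34% in either direction). One of them was Rps14. This small subunit gene, known from a human bone marrow syndrome, had 0 and 1 reads in control and 8 and 16 in ex14D beside 24 and 21 in the inputs. It did not pass the filter on low counts, and nearly all its H3K27me3 reads lay in ex14D. Its call is therefore given as a description, with no p. Rps14 stayed below input in all 4 libraries, at a level of -2.98 and -1.89 in ex14D.

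Whether the members together rose beyond the spread between library pairings depended on the scale. With TMM scaling 35 of 81 members had both ex14D libraries above both control libraries (43.2%) and 0 had both below, where the shares over all promoters were 27.1% and 18.7%. In CPM these were 24 (29.6%) and 7 (8.64%), beside 12.7% and 38.4%. In RPM they were 34 (42%) and 2 (2.47%), beside 21.6% and 23.4%. The log2 ratio of the summed reads, ex14D to control, was 0.70 with TMM, with an SD of 0.34 over the 4 pairings of libraries. It was 0.57 ± 0.24 with all counted reads, 0.26 ± 0.31 with reads on genes and 0.27 ± 0.27 relative to the other translation and proteasome genes. In the last 2 scalings the ratio did not exceed the spread between pairings, though 3 and 4 of the 4 pairings lay above 0. The pairings reuse the same 4 libraries, so their SD is not an error between replicates. Without control replicate 2, the library with the lowest sum, the TMM ratio was 0.46.

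The ex14D H3K27me3 libraries also differed from control in depth and in their share of reads on genes, as given above, and the part of these in the ratio was not tested.

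**Figure D4:**
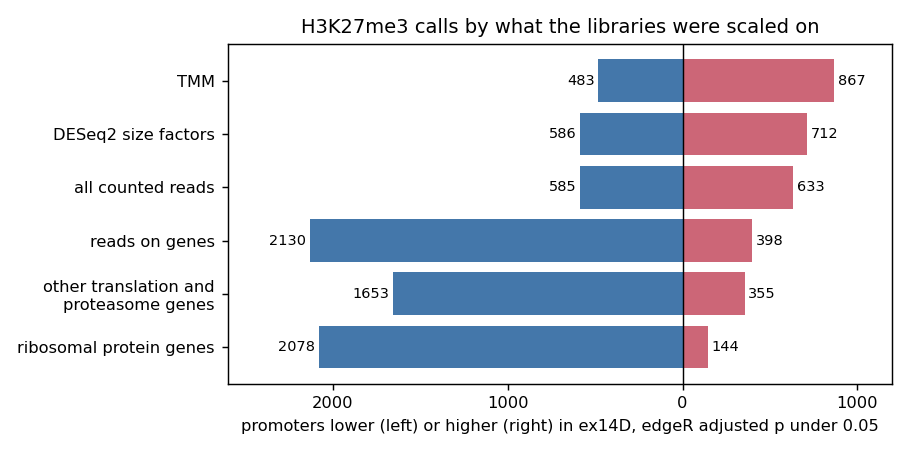
Number of promoters called lower (left, blue) or higher (right, red) for H3K27me3 in ex14D against control with edgeR at an adjusted p under 0.05, for 6 ways of scaling the libraries. TMM gave 483 lower and 867 higher, and scaling on the 85 ribosomal protein genes gave 2078 lower and 144 higher.

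The members can also be used as the set on which libraries are scaled, and the calls over all promoters turned on this choice. TMM gave 483 promoters lower and 867 higher in ex14D. Scaling on the summed reads of the 85 members gave 2078 lower and 144 higher and moved the median log2 fold change of all promoters from -0.03 to -0.77. Scaling on the 209 other translation and proteasome genes gave 1653 lower and 355 higher, with a median of -0.46. All counted reads gave 585 lower and 633 higher. Of 39 Hox promoters, 36 were higher with TMM and 30 with scaling on the members, and 0 were lower in either. These calls are relative to other reads of the same library and do not measure the total amount of the mark. The paper reports less H3K27me3 in the mutant cells by Western blot, and less at Hoxa10 and Hoxd9 by ChIP-PCR. The sums used for scaling on the members rest on 257 to 597 member reads per library.

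EZH2 was counted differently. The deposited EZH2 counts follow the length of the gene rather than a window of fixed size, and are described here as reads on genes. Of the 85 members 39 (45.9%) are listed at 0 in all 4 EZH2 libraries, as are 43.2% of all genes. The zeros followed the chromosome. All 5 members on chromosome 10 and all 7 on chromosome 11 are listed at 0, where 99.2% and 95.4% of all genes on these chromosomes are, while 0 of 3 on chromosome 1 and 0 of 5 on chromosome 5 are. The cause of these zeros was not tested, and no binding is read from them.

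The 46 members with EZH2 reads had slightly fewer counted reads per length than genes in general. In the EZH2 libraries 21.2% to 21.9% of all counted reads were ambiguous and assigned to no gene. The part of this in the member values was not tested. EZH2 CPM per kb of gene had a member median of 0.842 and 0.871 in control and 0.846 and 0.902 in ex14D. Over 13879 genes with reads the medians were 0.944, 0.945, 0.981 and 1. The 133 other translation and proteasome genes with reads had 0.958, 0.939, 0.973 and 1.02. The 157 silent Vmn1r genes with reads had 0.783, 0.78, 0.85 and 0.836, so low values were not particular to the members. Inputs were counted in 1 kb windows only, so these values are not set against input. The 16 Hox genes with reads had medians of 28.6, 27.5, 21.2 and 16.7. The highest member mean was 1.26, under the lowest Hox mean of 4.75.

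**Figure D5:**
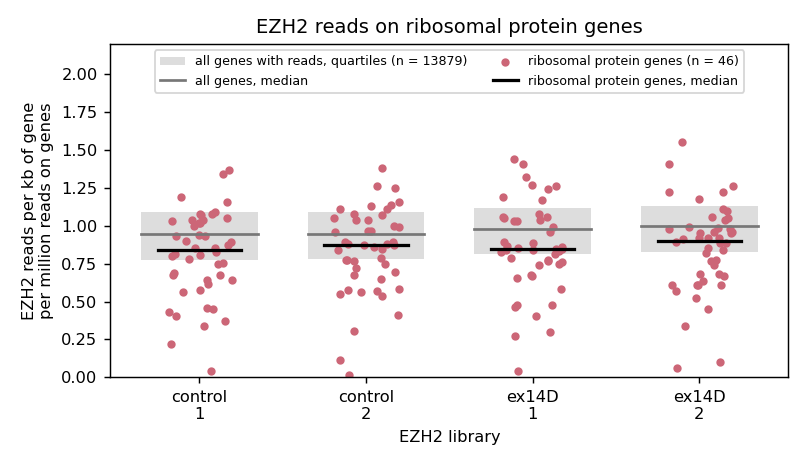
EZH2 CPM per kb of gene in the 4 EZH2 libraries, for the 46 ribosomal protein genes with reads (points, black bar at the median) beside the median and quartiles of 13879 genes with reads (grey). Member medians between 0.842 and 0.902 lie under the median of all genes in each library.

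The members with the most EZH2 reads were Rps15a, Rpl22 and Rpl3l. Rps15a had 168 and 194 reads in control and 165 and 184 in ex14D over 11774 bp. Rpl22, which is known for its role in T cell development, had 136 and 206 in control and 140 and 166 in ex14D over 9647 bp. Rpl3l had 124 and 132 in control and 118 and 131 in ex14D. Per length all 3 lay near all genes, at 1.03 and 0.895 for Rps15a, 1.02 and 1.16 for Rpl22 and 1.08 and 0.862 for Rpl3l in the control libraries. Of the members that were tested, Rpl10 (12 and 23 reads in control), Rpl29 (16 and 15) and Rps21 (15 and 21) had the fewest.

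No member was called for EZH2 in ex14D against control. Of the 44 that passed the filter 0 were called, where 7.93% of 13401 genes were, 7.88% lower and 0.0522% higher. Without the filter 0 of 46 members were called, beside 7.76% of genes, 7.71% lower and 0.0575% higher. At an unadjusted p under 0.05, 0 members were lower and 1 was higher, and DESeq2 called 0. These counts are given as a description, without the shares over all genes. The log2 fold changes ran from -0.44 to 0.51 around a median of 0.01, with 23 above and 21 below 0, and the median of all genes was 0.02. The lowest SE of a member was 0.15 and the 90th percentile was 0.32. For comparison, 13 of 16 Hox genes tested were lower in ex14D, with a median of -0.63.

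Rps27l, the paralog induced by p53, had 39 and 51 EZH2 reads in control and 57 and 62 in ex14D. Its log2 fold change of 0.46 ± 0.18 had an unadjusted edgeR p of 0.0393 and an adjusted p of 0.272. Rpl13a, known from the GAIT complex that silences translation of inflammatory transcripts, had 46 and 63 reads in control and 29 and 48 in ex14D (-0.44 ± 0.22, adjusted p = 0.4). Rpl28 had 22 and 19 in control and 31 and 25 in ex14D (0.51 ± 0.34, adjusted p = 0.555). With TMM the reads of Rps27l and Rpl13a did not overlap between genotypes, as for 7 members higher and 6 lower in ex14D of 46, beside 23.5% and 22.9% of genes with reads.

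The members summed to nearly the same share of EZH2 reads in every library. In CPM the sums were 153.8 (95% exact Poisson interval 147.3 to 160.5) and 157.7 (152.0 to 163.5) in control and 160.6 (153.9 to 167.4) and 162.8 (156.7 to 169.1) in ex14D. The log2 ratio of ex14D to control was 0.01 ± 0.02 (SD of 4 pairings) with TMM and 0.05 ± 0.02 with reads on genes, and -0.03 ± 0.03 relative to the other translation and proteasome genes. Its size stayed within 0.05 in these scalings.

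EZH2 domains, called by the authors with hiddenDomains in each library, lay over the 1 kb window of 0, 1, 0 and 0 members, against 17%, 22.3%, 12% and 11.3% of all placed genes. The other translation and proteasome genes had 5.26%, 6.7%, 2.39% and 2.39%, and 0, 1, 0 and 1 of 207 Vmn1r genes had a domain. The 1 member was Rpl36al in control replicate 2, whose window is almost wholly shared with Mgat2. With 5 kb windows the members with a domain were 2, 3, 0 and 1, beside 17.9%, 23.5%, 12.7% and 12% of all placed genes. Rpl7 and Rps27rt were added in both control libraries, and Rpl7 alone had a domain in ex14D replicate 2.

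Among the other translation and proteasome genes, a few were called in these comparisons. For H3K27me3, Eif5a2 (77 and 135 reads in control, 266 and 249 in ex14D) was higher in ex14D by 0.93 ± 0.22 (adjusted p = 0.00632), Eif4e1b was higher by 1.07 ± 0.32 (adjusted p = 0.0345), and Eif4g3 was lower, at -0.98 ± 0.30 (adjusted p = 0.0345), of 48 tested. Eif5a2 and Eif4e1b are tissue-restricted relatives of general initiation factors. For EZH2, Eef1a2 (-0.62 ± 0.11, adjusted p = 0.018) and Eif5a2 (-0.42 ± 0.10, adjusted p = 0.0459) were lower, of 132 tested. The mitochondrial ribosome genes (13 tested for H3K27me3 and 46 for EZH2) and the proteasome genes (15 and 25) gave 0 calls with edgeR, and DESeq2 also called 0. At an unadjusted p under 0.05, 0 were lower for either antibody, and 2 mitochondrial ribosome genes and 1 proteasome gene were higher for H3K27me3. The unadjusted counts are a description, without the shares over all genes.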

How the data were processed

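The data are 10 ChIP-seq libraries of E14 mouse ES cells (mm10). Reads were aligned by the authors with Bowtie, and htseq-count gave the deposited counts per gene, which are not normalized. H3K27me3 and input counts cover 1 kb windows around the 5′ most start. EZH2 counts follow gene length. The deposited MACS2 broad peaks of each H3K27me3 library give a fold enrichment (a ratio) and a −log10 q. EZH2 domains were called by the authors with hiddenDomains. The control used by MACS2 and the nature of the replicates are not given in the sources used here. H3K27me3 domains of hiddenDomains were not used.

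Genes were tested per antibody with edgeR 4.0.16 in R 4.3.3 (TMM, filterByExpr, quasi-likelihood F test, Benjamini-Hochberg, threshold 0.05), and against input with genotype and antibody as terms and reads on genes as library size. SE is the absolute log2 fold change over the square root of F. DESeq2 1.42.0 was an alternative. The fit was tested on simulated data. Rows of htseq-count that name no gene stayed out of tests and CPM, which leaves 1.9% to 7.58% of counted reads for input and H3K27me3 and 43.9% to 44.3% for EZH2. Levels used a pseudocount of 1 CPM. With 2 libraries against 2, an exact permutation test cannot go below 0.333. Alternatives were other scalings, filters, tests, pseudocounts and windows, and leaving out each library. Members, gene lists and tests were chosen with earlier results of these data known. Named were members called in a fit (at most 10 per fit), the 3 highest and 3 lowest by control CPM per antibody, members with a peak or domain, paralogs, Rps19bp1, X-linked members and Rps6, Rpl3, Rpl13a, Rps19, Rpl11 and Rpl5. Other members were singled out after their values were seen. Some single genes are not reported here.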

Additional observations from a re-analysis of the deposited data

How the results depend on the processing

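The counts of H3K27me3 reads are small, inputs have 1 library per genotype, and each genotype has 2 libraries per antibody, and the H3K27me3 member sum exceeded the spread between library pairings under some scalings only. Of the values recomputed for the comparisons (counts of calls, ratios and levels), 95 stayed near the value reported, 27 moved beyond 1.5 times or beyond the spread, and 2 changed sign. Many of the 95 are counts of called members that were 0 and stayed 0. The tally therefore does not measure how stable the other values are. Of the recomputed values of single genes, 115 kept their direction and side of the threshold, 3 lost the call and 26 changed sign. With reads on genes as library size 2130 promoters were lower and 398 higher for H3K27me3 in ex14D, with the ribosomal protein genes 2078 and 144, and with the other translation and proteasome genes 1653 and 355. DESeq2 called 266 lower. Leaving out each library in turn gave 55 to 610 lower and 183 to 797 higher, with the lone library of a group assumed to vary like the others, and the lowest counts came without control replicate 2. Without the filter 2 members were called higher.

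Replicate numbers are shared between genotypes, but same-numbered libraries did not deviate together (correlation across genes -0.102 for H3K27me3 and -0.032 for EZH2). With the replicate block 411 promoters were lower and 765 higher for H3K27me3, and 0 members were called. The crossed pairing, chosen after seeing the data, gave 802 lower and 1183 higher. Under the block Rpl37rt stood at -0.02 and Rpl39l at -0.13.

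Against input, 34 members were lower and 1 higher with TMM, and 29 and 1 with all counted reads. The log2 ratio of summed H3K27me3 member reads, ex14D to control, was 0.26 with reads on genes and 0.27 relative to the other translation and proteasome genes, and ran from 0.46 to 0.99 over the libraries left out. For EZH2 it was 0.05 with reads on genes, 0.04 with all counted reads, -0.03 relative to the other genes, and -0.01 to 0.03 over the libraries left out. The log2 ratio of summed H3K27me3 member CPM to input, -2.80, became -1.04 with all counted reads, and the median member level, -2.50, became -1.86 with a pseudocount of 5 CPM. With 5 kb windows 5 members had an H3K27me3 peak and 3 an EZH2 domain in any library, beside 21.2% to 31% and 12% to 23.5% of all placed genes per library.

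Single members turned their sign for H3K27me3 in ex14D against control. With reads on genes as library size Rpl37rt was at -0.42, Rpl39l at -0.41, Rpl22l1 at -0.05 and Rpl35 at -0.20. Relative to the other translation and proteasome genes they were at -0.41, -0.38, -0.05 and -0.20. With all counted reads Rpl37rt and Rpl39l were at -0.12 and -0.09, with DESeq2 size factors at -0.07 and -0.05, with the DESeq2 test at -0.09 and -0.15, and without the filter at -0.05 and -0.04. Over the libraries left out Rpl37rt ran from -0.18 to 0.19, Rpl39l from -0.79 to 0.59 and Rpl35 from -0.09 to 0.80. Against input Rpl10l was at 1.20 with TMM and 1.25 with all counted reads, and Rpl37rt at 0.01 with all counted reads. The cause of these turns was not tested.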
